A study of Homo sapiens with 4 samples.

Results

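The 9 genes described here encode the 7SK particle and the kinase it holds: HEXIM1, HEXIM2, LARP7, MEPCE and RN7SK of the particle, CDK9, CCNT1 and CCNT2 of the kinase P-TEFb, and the partner AFF4. They were 9 of the 57820 gene rows in each count table, and were selected by name and on their counts in these libraries, with the difference between SGSS05-NS and DMSO already known, so their differences are given below as a description with no p-value, and the counts of genes past a threshold are given only beside those of all genes. All 9 passed the filter on low counts that left 16468 genes for the fit.

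P-TEFb is the kinase that lets paused RNA polymerase II go on into a gene. It is made of CDK9 and a cyclin T. A large part of it is kept inactive in a particle built on the non-coding RNA 7SK, where HEXIM1 or HEXIM2 bound to the RNA blocks the kinase, LARP7 covers the end of the RNA and MEPCE caps its start. P-TEFb set free from the particle is used by BET proteins and by the super elongation complex, whose scaffold can be AFF4. HEXIM1 transcript is in use as a marker of response to drugs that act on BET proteins.

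The cells were SY5Y, a human neuroblastoma cell line labelled MYCN wild type, taken 12 h after exposure to SGSS05-NS or to the solvent DMSO. The labels give 3 μM for SGSS05-NS. The study's captions for this comparison give the same dose as the labels, and its methods give a lower one. Both name the compound SGSS05-NS3, which the study describes as a covalent inhibitor of the histone methyltransferase SETD8. Its supplement also lists other methyltransferases that SGSS05-NS3 inhibited, some of them at concentrations below the labelled dose. The study's discussion names SGSS05-NS as a compound of the same series. Whether the labels mean that compound or SGSS05-NS3 cannot be told. The dose and the name in the labels are kept. Each condition had 2 libraries of total RNA, described in the methods as independent biological replicates.

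Between 21463105 and 25350204 fragments (read pairs, each counted once) fell on genes in each library, and the 2 libraries of a condition differed by more than sampling noise, with chi-square values of 9.75 (DMSO) and 13.4 (SGSS05-NS) per degree of freedom. The share of fragments on no annotated exon of the counted strand was 12.4% and 12.3% with DMSO and 16.1% and 15.3% with SGSS05-NS. Of 10 neuroblastoma markers, all but TH were well expressed (TH had 0 to 2 fragments in a library). At an adjusted p under 0.001 (edgeR), 7 of the 9 tested were lower with SGSS05-NS, beside 8.14% of all genes. Among the 7 were PHOX2A (log2 fold change -0.65) and CHGA (-1.37). The other 2 tested also had both treated libraries below both controls, as did 36.9% of all genes tested. Of 6 mesenchymal markers, PRRX1 was at 0 in every library, FN1 had between 1183 and 1657 fragments, SNAI2 between 243 and 309 and the other 3 at most 29, and none of the 5 tested passed the threshold, with log2 fold changes from -2.24 for COL1A2 to 1.41 for CD44. The part of these shifts in the results below was not tested, and in these bulk samples fewer cells of a type and less RNA per cell cannot be told apart.

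RN7SK itself and 3 of its copies elsewhere in the genome are shown, because fragments counted on these copies fell with SGSS05-NS and can be confused with those of RN7SK. The sequences are from GRCh37 (hg19), each on its gene's strand and read from the 5′ end. The RN7SK gene lies at chr6:52860418-52860748 on the plus strand and is 331 bases long. In the line for RN7SK, which gives its first 120 bases, capitals mark the 3 GATC motifs, at bases 13, 42 and 64. The latter pair faces each other in a hairpin that is the known binding site of HEXIM. In the lines for the copies, capitals mark the bases that differ from RN7SK in an alignment.
RN7SK, chr6:52860418-52860537, plus strand: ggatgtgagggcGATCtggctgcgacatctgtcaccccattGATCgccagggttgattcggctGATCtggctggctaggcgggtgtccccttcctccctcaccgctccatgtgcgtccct
RN7SKP203, chr2:76672417-76672536, minus strand: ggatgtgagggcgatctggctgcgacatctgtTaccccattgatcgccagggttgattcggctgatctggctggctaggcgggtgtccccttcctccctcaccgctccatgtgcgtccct
RN7SKP255, chr14:90178855-90178974, plus strand: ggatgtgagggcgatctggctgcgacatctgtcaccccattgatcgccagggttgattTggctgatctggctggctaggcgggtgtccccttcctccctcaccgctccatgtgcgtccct
RN7SKP80, chr22:42961218-42961336, minus strand: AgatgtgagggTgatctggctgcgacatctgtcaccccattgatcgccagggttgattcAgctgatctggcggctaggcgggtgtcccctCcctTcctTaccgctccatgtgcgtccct

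Over this stretch RN7SKP203 and RN7SKP255 each differed from RN7SK at 1 base, and RN7SKP80 differed at 6 bases and was 119 bases long. The longest run shared exactly with RN7SK was 143 bases in RN7SKP203, 128 in RN7SKP80 and 103 in RN7SKP255. Fragments that fit RN7SK and a copy equally well are not assigned to any gene.

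The bases before the start of HEXIM1, a gene without introns, and of RN7SK are shown as well, since these genes had the largest difference among the 9 and the one nearest to 0. Capitals mark TATAAA and CCAAT on either strand.
HEXIM1, chr17:43225592-43225841, plus strand: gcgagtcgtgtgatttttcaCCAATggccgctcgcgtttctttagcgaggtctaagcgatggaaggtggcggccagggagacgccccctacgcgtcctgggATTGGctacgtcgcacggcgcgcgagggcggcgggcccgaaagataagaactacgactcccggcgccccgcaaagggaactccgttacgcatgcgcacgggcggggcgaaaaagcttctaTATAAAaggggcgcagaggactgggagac
RN7SK, chr6:52860168-52860417, plus strand: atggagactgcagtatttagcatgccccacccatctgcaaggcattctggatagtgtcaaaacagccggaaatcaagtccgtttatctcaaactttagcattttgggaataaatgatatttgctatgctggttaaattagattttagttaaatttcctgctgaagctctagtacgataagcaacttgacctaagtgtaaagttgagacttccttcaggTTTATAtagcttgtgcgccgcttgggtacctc

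The TATA box TATAAA, the NF-Y motif CCAAT, the SP1 motif GGGCGG, the AP-1 motif TGANTCA, the CREB motif TGACGTCA and the heat shock motif GAANNTTC were searched on both strands from 250 bases before to 50 bases after the annotated start of each gene, a window of 300 bases. HEXIM1 held TATAAA 29 bases before its start, 2 CCAAT and 2 GGGCGG. In RN7SK, which RNA polymerase III transcribes from a promoter ahead of the gene, the only match was TATAAA on the other strand, 32 bases before the start. Of 19404 promoters of protein-coding genes, 10.7% held TATAAA, 35.8% CCAAT and 52.7% GGGCGG. CDK9 had 8 GGGCGG and 1 TATAAA on the other strand, CCNT1 had 3 GGGCGG and 1 CCAAT, AFF4 had 3 GGGCGG, MEPCE had 2, and LARP7 had 1 together with TGACGTCA (held by 2.28% of promoters) and 2 CCAAT. HEXIM2 had 2 CCAAT and no other match, CCNT2 had no match, and neither TGANTCA (6.34%) nor GAANNTTC (5.97%) was found in any of the 9 windows. These matches are a description of letters and not of bound factors.

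Levels are given in CPM, the fragments on a gene scaled to a library of fixed size, with library sizes corrected by TMM, a method that limits the weight of a few very abundant genes. They are compared between genes only as CPM per kb of exon (all annotated exons of a gene joined). These lengths come from a later annotation than the fragment counts, so the order and the ratios between genes are approximate. In DMSO the order per kb was RN7SK at 152000 CPM per kb (SD 654, n = 2), MEPCE at 26.5 (SD 2.83), AFF4 at 18.5 (SD 2.11), CCNT1 at 16.0 (SD 1.32), CDK9 at 12.0 (SD 0.915), CCNT2 at 7.69 (SD 0.0977), LARP7 at 6.66 (SD 0.166), HEXIM1 at 3.85 (SD 0.0875) and HEXIM2 at 1.94 (SD 0.687). No neighbours in this order overlapped in the 2 DMSO libraries, but AFF4 and CCNT1 came close, with 17.0 in the lower library of AFF4 and 16.9 in the higher one of CCNT1. With SGSS05-NS, HEXIM1 reached 20.9 CPM per kb (SD 0.678, n = 2) and lay above CDK9 at 16.3 (SD 0.506), CCNT2 at 12.6 (SD 1.21) and LARP7 at 4.82 (SD 0.305).

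**Figure D1:**
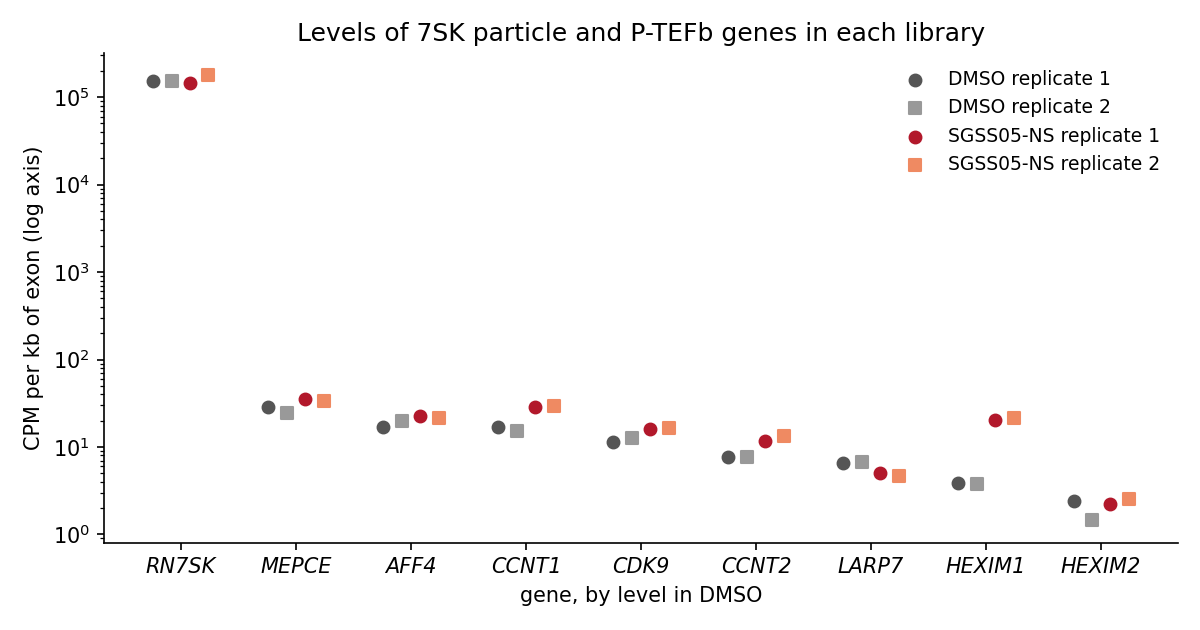
Level of each of the 9 genes in each of the 4 libraries, in CPM per kb of exon on a log axis, with genes ordered by their level in DMSO. RN7SK stands at about 152000 in DMSO and the other 8 genes lie between 1.45 and 35.8; HEXIM1 moves from 3.79 and 3.91 in DMSO to 20.4 and 21.4 with SGSS05-NS.

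The study's threshold, an adjusted p under 0.001, was used here with edgeR's quasi-likelihood test, where the study used the likelihood ratio test. At this threshold 3 of the 9 genes were higher with SGSS05-NS (HEXIM1, CCNT1 and CCNT2) and 0 were lower. Of all genes tested, 6.37% were higher and 8.14% were lower. At an adjusted p under 0.05, MEPCE and CDK9 were added to the higher genes and LARP7 was the only lower one, giving 5 higher and 1 lower, where 22.6% of all genes were higher and 23.7% lower. In 6 genes both SGSS05-NS libraries lay above both DMSO libraries, in LARP7 both lay below, and in HEXIM2 and RN7SK the groups overlapped. Of all genes tested, 37.8% lay above and 36.9% below in this way. The median log2 fold change was 0.40 over the 9 genes and 0.01 over all genes. Since the genes were chosen with this contrast known, nothing is read from these counts.

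Among the inhibitors of the kinase, HEXIM1 differed most between the conditions, while for HEXIM2 the groups overlapped. HEXIM1 (chromosome 17, 43225842 to 43229466) was counted 356 and 321 times in DMSO and 1644 and 1824 times with SGSS05-NS. Both treated libraries stood far above both controls, and the spread within each pair was small. The mean level of HEXIM1 was 14.0 CPM in DMSO (SD 0.317, n = 2) and 75.8 CPM with SGSS05-NS (SD 2.46, n = 2), a 5.43-fold difference in the fit, or 2.44 on the log2 scale with a standard error of 0.10. Leaving out any 1 library kept it between 2.4 and 2.47. By size of the rise it was gene number 240 of the 16468 tested, and by fragments it went from rank 8640 and 8707 of all genes in the DMSO libraries to rank 2896 and 2718.

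HEXIM2, the close relative of HEXIM1 and its neighbour (chromosome 17, 43238067 to 43247407), had 122 and 68 fragments in DMSO and 98 and 121 with SGSS05-NS. The groups overlapped, and the second DMSO library was the low one. The log2 fold change was 0.29 (standard error 0.24), and it was -0.04 without that library and 0.71 without the other DMSO library. Per kb, HEXIM1 was 1.62 and 2.61 times HEXIM2 in the DMSO libraries and 9.29 and 8.35 times HEXIM2 in the SGSS05-NS libraries. HEXIM1 and HEXIM2 together were 0.559 and 0.415 times CDK9 per kb in DMSO and 1.42 and 1.44 times CDK9 with SGSS05-NS. These are ratios of transcript levels, and protein was not measured in these files.

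A long antisense gene, HEXIM2-AS1, overlaps both genes (1700 bases of HEXIM1 and 839 of HEXIM2). It had 18, 15, 12 and 22 fragments in DMSO 1, DMSO 2, SGSS05-NS 1 and SGSS05-NS 2, with a log2 fold change of 0.12. Counted without regard to strand, HEXIM1 had 340, 322, 1476 and 1604 fragments in the same order and a log2 fold change of 2.26, and HEXIM2 had 61, 52, 83 and 96 and a log2 fold change of 0.71. HEXIM2 thus lost more of its fragments than HEXIM1 in that column, where a fragment that falls on both a gene and its antisense gene is left out as ambiguous.

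The proteins that stay on 7SK RNA had values on opposite sides of 0. LARP7 (chromosome 4, 113558233 to 113578852), which binds the end of 7SK and keeps it stable, had 1328 and 1281 fragments in DMSO and 904 and 876 with SGSS05-NS. It was the only one of the 9 genes with both treated libraries below both controls. Its level was 53.9 CPM (SD 1.35, n = 2) in DMSO and 39.0 CPM (SD 2.47, n = 2) with SGSS05-NS. Its log2 fold change was -0.47, with a standard error of 0.10. It lay from -0.54 to -0.40 with 1 library left out. The MIR302 host gene MIR302CHG, which overlaps LARP7 on the other strand, had 0 fragments in every library.

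MEPCE (chromosome 7, 100025945 to 100031749), the enzyme that caps 7SK, had 2410 and 1929 fragments in DMSO and 2677 and 2698 with SGSS05-NS. Both treated libraries were higher, and the 2 DMSO libraries were farther apart than the treated ones. The level was 89.3 CPM (SD 9.54, n = 2) against 118 CPM (SD 4.18, n = 2). On the log2 scale MEPCE differed by 0.40 with a standard error of 0.10, and by 0.27 to 0.50 when 1 library was left out. LARP7 was 0.230 and 0.277 times MEPCE per kb in DMSO and 0.141 and 0.135 times MEPCE with SGSS05-NS.

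RN7SK had the most fragments of any gene in all 4 libraries, with 1269828 and 1175232 in DMSO and 1057405 and 1382674 with SGSS05-NS. These were 5.01% and 4.96% of the fragments on genes in DMSO and 4.93% and 5.79% with SGSS05-NS. The treated libraries lay on either side of the controls. The log2 fold change was 0.08 (standard error 0.13), with 0.21 without the first SGSS05-NS library and -0.08 without the second. The RNA at the centre of the particle thus showed a difference smaller than the spread between its 2 treated libraries.

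The catalytic subunit CDK9 (chromosome 9, 130547958 to 130553071) had 854 and 886 fragments in DMSO and 1062 and 1176 with SGSS05-NS. Its level was 36.0 CPM (SD 2.75, n = 2) against 48.9 CPM (SD 1.52, n = 2), and the log2 fold change was 0.44 (standard error 0.10). The groups did not overlap, and the difference was the smallest of the 3 P-TEFb subunits.

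CCNT1 (chromosome 12, 49082241 to 49110781), which encodes cyclin T1, had 3131 and 2595 fragments in DMSO and 4703 and 5067 with SGSS05-NS. The level was 118 CPM in DMSO (SD 9.70, n = 2) and 214 CPM with SGSS05-NS (SD 2.49, n = 2), 1.81-fold, with a log2 fold change of 0.86 (standard error 0.10). CCNT2 (chromosome 2, 135675805 to 135716912), which encodes the alternative cyclin T2, had 1767 and 1616 fragments in DMSO and 2372 and 2879 with SGSS05-NS. For CCNT2 this was 69.8 CPM (SD 0.887, n = 2) against 115 CPM (SD 11.0, n = 2), 1.64-fold, with a log2 fold change of 0.72 (standard error 0.10). Both cyclins were higher in every treated library, and they kept a similar ratio to each other: per kb, CCNT1 was 2.18 and 1.98 times CCNT2 in DMSO and 2.44 and 2.17 times CCNT2 with SGSS05-NS. The 2 cyclins together were 2.18 and 1.80 times CDK9 in DMSO and 2.54 and 2.57 times CDK9 with SGSS05-NS.

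AFF4 (chromosome 5, 132211087 to 132299326), the scaffold that joins P-TEFb to the super elongation complex, had 4814 and 5269 fragments in DMSO and 5726 and 5657 with SGSS05-NS. The treated libraries were above the controls by little, 249 CPM (SD 12.4, n = 2) against 209 CPM (SD 23.8, n = 2). The log2 fold change was 0.26 (standard error 0.10), and 0.14 to 0.36 with 1 library left out.

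**Figure D2:**
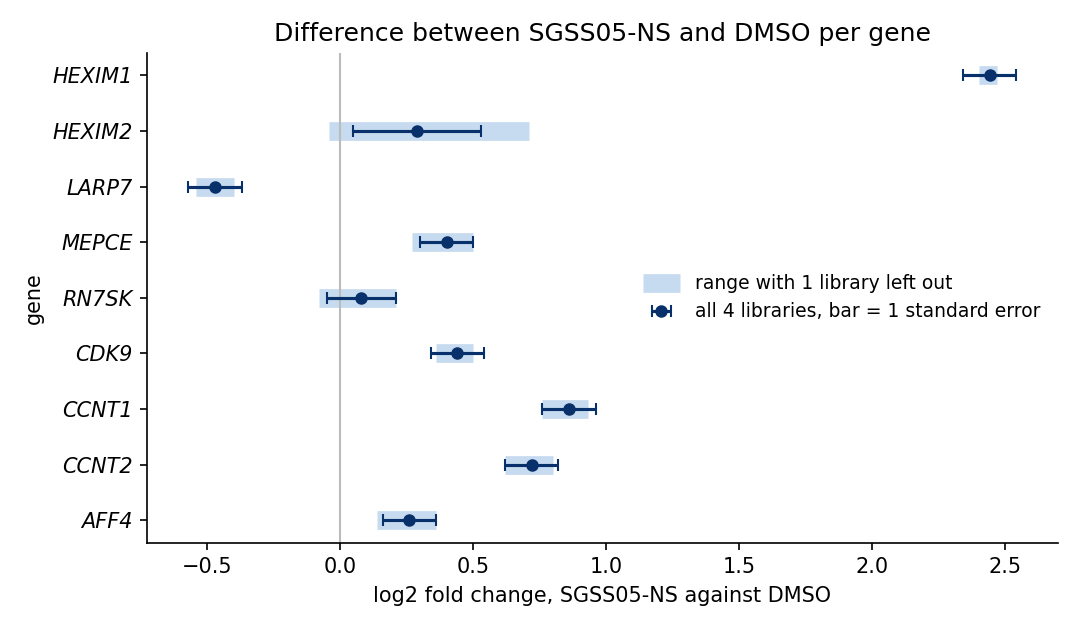
Log2 fold change of SGSS05-NS against DMSO for each of the 9 genes (points, with bars of 1 standard error from the fit on all 4 libraries) and the range of the value when 1 library at a time is left out (pale bars). HEXIM1 stands at 2.44 with a range of 2.4 to 2.47, LARP7 is the only gene with its whole range below 0, and the ranges of HEXIM2 and RN7SK include 0.

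The tested genes whose profile over the 4 libraries was nearest to that of HEXIM1 were RFPL3S, LINC00664 and PCDH10, at Euclidean distances of 0.0929, 0.123 and 0.127 in centred log2(CPM + 0.1). RFPL3S had 2 and 2 fragments in DMSO and 18 and 21 with SGSS05-NS, and LINC00664 had 0 and 0 against 10 and 12. PCDH10, a protocadherin gene, was the only well counted one, with 1.71 and 1.75 CPM against 10.5 and 9.91 CPM. The genes nearest to RN7SK were COMMD9, TMEM219 and AP1S2, at distances of 0.0165, 0.0224 and 0.0286. Each of them was highest in the second SGSS05-NS library and lowest in the first, as RN7SK was: COMMD9 had 48.2, 47.8, 45.1 and 56.5 CPM in DMSO 1, DMSO 2, SGSS05-NS 1 and SGSS05-NS 2. With 4 libraries many genes share any profile, and the names are a description.

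Fragments counted on the copies of RN7SK were much fewer with SGSS05-NS, beside the log2 fold change of 0.08 for RN7SK. The files list 291 such copies (pseudogenes named RN7SKP). Together they had 80575 and 81808 fragments in DMSO and 22919 and 28134 with SGSS05-NS. For every 100 fragments on RN7SK, 6.35 and 6.96 fell on copies in DMSO and 2.17 and 2.03 with SGSS05-NS. The groups were far apart, and the 2 libraries of each condition were close to each other.

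Of the 14 copies with enough fragments to test, 10 were lower with SGSS05-NS at an adjusted p under 0.001 (edgeR, adjusted over all genes tested), 0 were higher and 4 did not pass. The log2 fold changes of the 10 lay between -2.56 and -1.17, and the median over the 14 was -1.47. The lowest value was that of RN7SKP224 (standard error 0.42), with only 39 and 31 fragments in DMSO and 3 and 8 with SGSS05-NS. The next lowest was -1.67. RN7SKP80 (chr22:42961054-42961336) had 51568 and 52594 fragments in DMSO, 64.1% of all fragments on copies, and 13911 and 17040 with SGSS05-NS. On the log2 scale RN7SKP80 fell by 1.67 with a standard error of 0.11 (edgeR adjusted p = 4.9e-07). RN7SKP255 (chr14:90178855-90179167) had 11392 and 11112 against 3025 and 3790 fragments, a log2 fold change of -1.64 (standard error 0.11, edgeR adjusted p = 4.7e-07). RN7SKP203 (chr2:76672205-76672536) had 7295 and 7105 against 2581 and 3214 fragments, a log2 fold change of -1.23 (standard error 0.10, edgeR adjusted p = 3.6e-06).

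The 10 lower copies matched between 77.0% and 89.7% of the bases of RN7SK. RN7SKP203, RN7SKP71 and RN7SKP80 held 24, 26 and 9 of the 212 possible windows of 120 bases of RN7SK without a change, and the other copies tested held none. RN7SKP48, with 89.7%, was the closest over the whole length, and had 3630 and 4147 fragments in DMSO and 1120 and 1362 with SGSS05-NS, a log2 fold change of -1.57. The copies that did not pass included RN7SKP57, which matched 55.0% of the bases and had 5 and 6 fragments in DMSO and 11 and 14 with SGSS05-NS (log2 fold change 1.25), and RN7SKP16 with 5 and 6 against 10 and 12 (1.07). The lower copies differed from RN7SK at 17 to 57 aligned bases, so how well a fragment can be told from RN7SK varies between copies, and counts on those that share long runs with it are uncertain. Whether the fragments came from RNA of these loci or from RN7SK itself was not tested. Added together, RN7SK and its copies had a log2 fold change of 0.01.

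Other genes of the pathway were followed in 8 lists of 75 names, by known role. Of the 65 tested, 8 were higher and 7 lower at an adjusted p under 0.001, beside 6.37% and 8.14% of all genes, and their median log2 fold change was 0.01, as it was for all genes. For 7 of the other 10 the counts were too low to test, and RMRP, RPPH1 and RN7SL1 were not matched to an identifier. The adjusted p-values below are from edgeR's quasi-likelihood test over all genes. They serve as a description, since the lists were chosen with earlier results of these data known.

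The super elongation complex had members at both ends. ELL2, an elongation factor that suppresses pausing of polymerase II, had 29 and 20 fragments in DMSO and 79 and 138 with SGSS05-NS, and rose by a log2 fold change of 2.22 (standard error 0.30, edgeR adjusted p = 1.3e-04). EAF1, which binds the ELL factors, rose by 0.68 (standard error 0.10, 1.6e-04), from 107 to 173 mean CPM. AFF3, a relative of AFF4, fell by 1.65 (standard error 0.18, 2.7e-05), from 22.0 to 6.98 mean CPM. MLLT3, a reader of acetylated histones in the complex, fell by 1.32 (standard error 0.13, 1.2e-05). The other members of the AFF family had log2 fold changes of 0.26 (AFF4) and 0.12 (AFF1), and AFF2 was at 0 in every library. The median of the 8 genes tested in this list was 0.11.

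Among BET proteins and factors that recruit P-TEFb or release it from 7SK, 2 of 11 were higher and 0 lower. BRD2, a BET protein that reads acetylated histones, rose by a log2 fold change of 1.13 (standard error 0.10, edgeR adjusted p = 4.1e-06), and JMJD6, a hydroxylase that takes part in release of P-TEFb from 7SK, rose by 1.37 (standard error 0.12, 6.4e-06). BRD3, another BET protein, had -0.06. RBM7, which binds 7SK in stress, had 0.63 and missed the threshold narrowly (edgeR adjusted p = 0.0010).

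The hnRNP proteins that hold 7SK when P-TEFb has left had a lower median, -0.59 over 6 genes, and 2 of the 6 were lower. HNRNPA2B1 fell by a log2 fold change of 0.87 (standard error 0.10, edgeR adjusted p = 3.3e-05), from 27935 and 23229 fragments to 13031 and 13340. HNRNPR fell by 0.67 (standard error 0.09, 1.3e-04). HNRNPA3 had -0.63, SYNCRIP -0.56 and HNRNPA1 -0.41, none of them past 0.001, and the helicase DHX9 had -0.02. In all of these but DHX9 both treated libraries lay below both controls, as they did in 36.9% of all genes tested.

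None of the 6 subunits of the pausing factors DSIF and NELF passed the threshold, and their values ran from -0.18 for NELFB to 0.35 for NELFA. At an adjusted p under 0.05 only NELFA did, by the same test. Among 13 genes of other transcription kinases and their cyclins, CCNL1 (log2 fold change 0.89, edgeR adjusted p = 8.1e-05) and CCNL2 (0.50, 9.5e-04), cyclins of the splicing-linked kinase CDK11, were higher, and CDK19, a Mediator kinase, was lower (-0.73, 1.8e-04). CCNL2 lost its call under 6 of the 16 other settings, among them the removal of either DMSO library or of the second SGSS05-NS library. The kinases CDK7, CDK12 and CDK13 had 0.16, -0.07 and -0.16. All 10 genes of this list that were not called ran from -0.45 to 1.45, the highest with 14 to 44 fragments in a library.

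Of 11 factors that transcribe RN7SK or bind its product, only BRF2 passed. BRF2, a subunit of the polymerase III initiation factor used at promoters of this type, rose by a log2 fold change of 1.32 (standard error 0.13, edgeR adjusted p = 1.4e-05), with 407 and 384 fragments against 786 and 1078. The subunits SNAPC1 to SNAPC5 lay between -0.29 and 0.36. SSB, the La protein, a relative of LARP7 that binds new polymerase III transcripts, had 0.11. Among the relatives of LARP7 and MEPCE, LARP6 rose by 1.18 (standard error 0.12, edgeR adjusted p = 1.8e-05), and the other 5 lay between -0.24 and 0.13.

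Of 12 other polymerase III transcripts, 4 could be tested. The Y RNA genes RNY1, with 144 and 143 fragments against 47 and 42, and RNY3, with 85 and 58 against 23 and 21, were lower. Their log2 fold changes were -1.60 (edgeR adjusted p = 8.7e-05) and -1.61 (7.3e-04). These genes are 113 and 102 bases long, and how evenly the libraries kept such short RNA was not tested. RNY3 lost its call in 5 of 16 other settings, among them the removal of the first DMSO library (-1.37) and of the second SGSS05-NS library (-1.50). RN7SL2, an RNA of the signal recognition particle with many copies of its own, had 330670 and 327489 fragments against 334084 and 446586, a log2 fold change of 0.32 that did not pass (edgeR adjusted p = 0.055). Like RN7SK, RN7SL2 was highest in the second SGSS05-NS library.

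**Figure D3:**
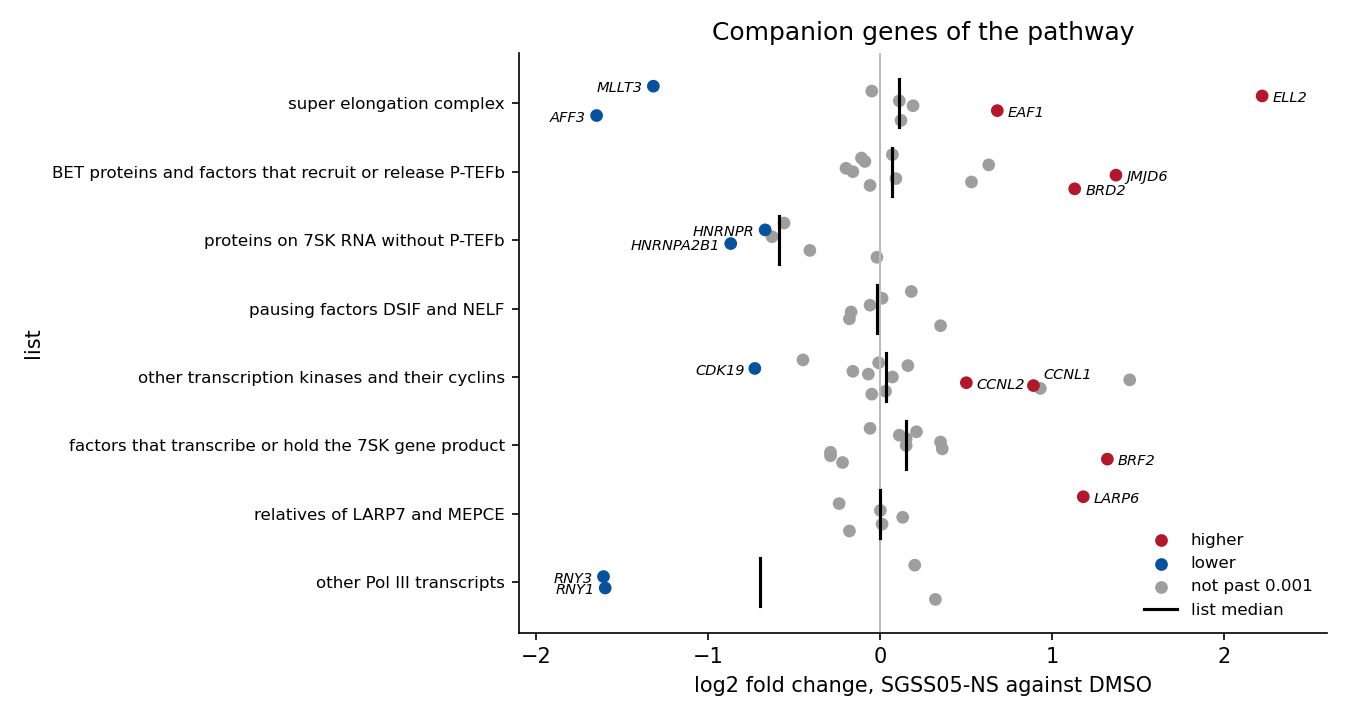
Log2 fold change of SGSS05-NS against DMSO for the 65 tested genes of the 8 lists, 1 point per gene, with genes past the threshold of 0.001 coloured and named and the list median as a black line. ELL2 stands at 2.22 and AFF3 at -1.65 in the same list, and the pausing factors lie between -0.18 and 0.35.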

How the data were processed

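Total RNA of SY5Y cells was measured in 4 libraries, 2 per condition. Per the study's methods, the authors made stranded libraries after removal of ribosomal RNA (the labels name a TruSeq RNA kit), trimmed read pairs (Trimmomatic 0.30) and mapped them to hg19 by STAR 2.4.2a with GENCODE 19. The deposited values are raw fragment counts for each gene, without normalization, unstranded and for each strand. Fragments that fit several places are not in the counts. Groups came from the sample labels.

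The reverse-strand counts went into edgeR 4.0.16 under R 4.3.3 (genes kept by filterByExpr, scaling by TMM). The test was quasi-likelihood without a block, with Benjamini-Hochberg over 16468 genes and a threshold of 0.001. The study used the same threshold, but with edgeR's likelihood ratio test. The other strand held 4.64% to 5.05% of fragments. The 4 summary rows of each file were left out of tests. A standard error is the log2 fold change divided by the square root of F. Symbols, positions and exon lengths came from GENCODE 44 on GRCh37. Identifiers without an entry (2282) kept their identifier. Sequences were read from GRCh37 and aligned globally with Biopython 1.88, and identity is the share of the bases of RN7SK. The pseudocount for profiles was 0.1. The test was checked on simulated counts.

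The 9 genes and all lists were chosen with earlier results of these data known. From each list the genes named were up to 2 in each direction, by smallest p; other genes named were picked after their values were seen. Alternatives were DESeq2 1.42.0 and its size factors, limma voom 3.58.1, the likelihood ratio test, other filters, scaling and strand, a threshold of 0.05, the replicate block, each library left out, and, chosen after seeing the data, RN7SK left out or summed with its copies. The results of 2 listed genes are not reported here.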

Additional observations from a re-analysis of the deposited data

How the results depend on the processing

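Of 492 values of single genes under other settings, 480 kept their call or, for the 9 genes and profile genes, stayed within the spread between libraries. Another 1 moved (HEXIM1 without regard to strand, 2.26) and 11 lost their call (CCNL2 and RNY3). Of genes called in the main fit, 0 changed sign. Uncalled genes could change sign within the spread. With 1 library left out, HEXIM2 went from 0.29 to -0.04 and RN7SK from 0.08 to -0.08. COMMD9 and TMEM219 went from 0.08 to -0.09, and AP1S2 from 0.08 to -0.06. The threshold of 0.05 used the main fit, so its fold changes could not move. All genes called numbered 2390 (1049 higher, 1341 lower), and 7631 (3728 and 3903) at an adjusted p under 0.05, 4289 (2022 and 2267) with the likelihood ratio test and 4604 (2034 and 2570) with no filter on low counts. Companion genes called went from 15 (8 higher, 7 lower) to 26 (14 and 12) at 0.05 and to 23 (13 higher) with no filter. Of the copies of RN7SK, 1 was higher at 0.05 (RN7SKP57). Among the 9 genes, 6 were called at 0.05 (5 higher, 1 lower) and 5 with the likelihood ratio test, which added CDK9 and LARP7. LARP7 was also the 1 lower gene called with no filter and with the replicate block. Since the 9 genes were chosen with this contrast known, nothing is read from these calls. The cause of these shifts was not tested. Same-numbered libraries did not deviate together (correlation 0.05 across genes). With 1 such difference per condition, this does not settle whether the numbers pair the libraries. The replicate block gave 3766 calls, 1759 of them higher. With 2 libraries per condition, the spread between libraries limits small differences such as those of HEXIM2, AFF4 and RN7SK, and HEXIM2 also has few fragments. Fragments that fit RN7SK and a copy equally well are not counted. DESeq2 gave no adjusted p for 1278 genes.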
